A study of Mus musculus with 30 samples.

Results

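The Cyp3a cytochromes P450 were described in mouse liver after exposure to perfluorooctane sulfonate (PFOS), a persistent perfluorinated surfactant. All probe sets annotated to Cyp3a11, Cyp3a13, Cyp3a16, Cyp3a25 or Cyp3a41a were taken, which gave 5 of the array's 45101 probe sets for 5 of the 19324 genes annotated on it. Each gene had 1 probe set, and that of Cyp3a41a was annotated to Cyp3a41b as well, so these 2 genes could not be told apart. Male mice 6 to 9 months old received PFOS (potassium salt) by gavage in Tween 20 for 7 days, and RNA came from the left lobe of the liver. The 6 groups of 5 mice were Null at 0, 3 and 10 mg/kg (PPARalpha-null, strain 129S4/SvJae-Pparatm1Gonz/J) and WT at 0, 3 and 10 mg/kg (strain label 129S1/SvlmJ). The Null allele is a targeted disruption of PPARalpha, and genotype and substrain cannot be told apart.

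Cyp3a enzymes oxidise steroids, bile acids and a large share of drugs in hepatocytes. Their transcription is raised by the pregnane X receptor (PXR, Nr1i2) and also by the constitutive androstane receptor (CAR, Nr1i3), which bind as dimers with RXR to paired copies of a short hexamer. PPARalpha, the receptor missing in Null mice, is the main fatty acid sensor of the liver. Cyp3a11 is the major Cyp3a enzyme of adult mouse liver, Cyp3a16 is known as a fetal and neonatal form, and Cyp3a41 and Cyp3a44 are known as female-predominant forms.

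Values are log2 RMA values, in which a difference of 1 is a factor of 2. The array medians lay between 5.60 and 5.69 and the array maxima between 14.4 and 14.5. Since all arrays were labelled and hybridised as 1 block, there was no batch to test. The arrays labelled WT 0 mg/kg, replicates 4 and 5, went against their label. In 1 of the 3 Ppara probe sets they had 8.53 and 8.63, against 10.55 to 10.66 in replicates 1 to 3 of that group and 8.43 to 9.35 in Null mice at 10 mg/kg. In the other 2 they lay below every Null array at 10 mg/kg (8.99 and 9.07 against 9.35 to 10.11, and 8.45 and 8.52 against 8.56 to 9.14). In Cyp2b10, a CAR target, they had 12.55 and 12.99, against 7.87 to 8.30 in replicates 1 to 3 and 11.96 to 13.14 in Null mice at 10 mg/kg. The Cyp3a changes that rest on WT 0 mg/kg are therefore given with and without both arrays, and the gene lists as counts with and without them. Since Cyp2b10 helped to single them out, values without them are not independent of that choice. How many probe sets separated from replicates 1 to 3 alone is not given here.

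The genes lie on mouse chromosome 5 (GRCm38.p6). Cyp3a16, Cyp3a41b, Cyp3a41a, Cyp3a44, Cyp3a11 and Cyp3a25 follow each other in that order between 145436309 and 146009644, with Cyp3a13 apart at 137892933 to 137925610. The 250 bases before a listed transcript start are shown for Cyp3a13, which had a called change. They are shown for Cyp3a41a too, whose probe set was called but is shared with Cyp3a41b. They are also shown for the major enzyme Cyp3a11 and for Cyp3a16, whose window is close to that of Cyp3a41a. For Cyp3a13 the listed start lies far inside the annotated span of the gene, and for Cyp3a16 just inside it (span end 145469740). Capitals mark the hexamers AGTTCA or AGGTCA on either strand (TGAACT or TGACCT where reversed) and TATAAA. All are on the minus strand, at chr5:137921620-137921869, chr5:145720137-145720386, chr5:145879855-145880104 and chr5:145469724-145469973 in the order printed.
Cyp3a13: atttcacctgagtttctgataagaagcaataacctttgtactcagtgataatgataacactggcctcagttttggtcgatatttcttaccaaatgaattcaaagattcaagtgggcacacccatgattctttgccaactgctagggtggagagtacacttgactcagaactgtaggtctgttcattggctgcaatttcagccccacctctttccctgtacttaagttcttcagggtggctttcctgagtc
Cyp3a41a: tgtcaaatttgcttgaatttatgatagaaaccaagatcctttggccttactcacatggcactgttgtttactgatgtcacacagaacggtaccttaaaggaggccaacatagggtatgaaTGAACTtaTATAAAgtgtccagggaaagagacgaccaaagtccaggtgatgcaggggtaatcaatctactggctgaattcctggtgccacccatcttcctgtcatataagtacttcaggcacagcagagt
Cyp3a11: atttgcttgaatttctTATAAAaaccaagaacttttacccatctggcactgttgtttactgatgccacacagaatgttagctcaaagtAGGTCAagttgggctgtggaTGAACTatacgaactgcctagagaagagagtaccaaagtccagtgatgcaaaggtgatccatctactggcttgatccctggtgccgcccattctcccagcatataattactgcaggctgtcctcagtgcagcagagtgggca
Cyp3a16: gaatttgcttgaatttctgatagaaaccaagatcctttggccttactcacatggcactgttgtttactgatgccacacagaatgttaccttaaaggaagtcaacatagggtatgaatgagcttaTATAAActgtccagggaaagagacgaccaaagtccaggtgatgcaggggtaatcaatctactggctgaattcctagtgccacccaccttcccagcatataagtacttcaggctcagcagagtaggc

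The Cyp3a13 window, before an internal start, held neither hexamer, and bases before the outer end of the annotated gene were not examined. Cyp3a41a held TGAACT beginning 130 bases before the start, Cyp3a11 held AGGTCA at 162 and TGAACT at 142, and Cyp3a25 held AGGTCA at 176 and its reverse at 155. Cyp3a25 had 2 listed windows, of which only the first was read here and below. Among 32817 promoter windows of this length, 11.9% held AGTTCA and 14% held AGGTCA on either strand, and 7.6% held TATAAA. No member window held the hexamers as direct repeats spaced by 1, 3 or 4 bases or as everted repeats spaced by 6 bases, arrangements found in 0.067%, 0.0122%, 0.0244% and 0.00914% of all windows. The Cyp3a41a window was 93.9% identical to that of Cyp3a16, 99.6% identical to that of Cyp3a41b and 65.5% identical to that of Cyp3a13.

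The 5 probe sets lay at very different places on the scale of the array, which says nothing of the genes' relative amounts. The Cyp3a11 probe set had a mean of 13.77 over the 30 arrays, and 0.111% of probe sets had a higher mean. Cyp3a25 averaged 13.24 (0.344% higher) and Cyp3a13 averaged 11.82 (1.88% higher). The Cyp3a41a/Cyp3a41b probe set averaged 5.47, close to the array median, and Cyp3a16 averaged 2.23, with 1.44% of probe sets lower. Cyp3a16 was above the array median in 0 of 30 arrays and did not pass the filter. The Cyp3a41a/Cyp3a41b probe set passed through 9 arrays, 5 of them from WT mice at 10 mg/kg and 3 from Null mice at 3 mg/kg, so that it passed only through arrays in which it was high.

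**Figure D1:**
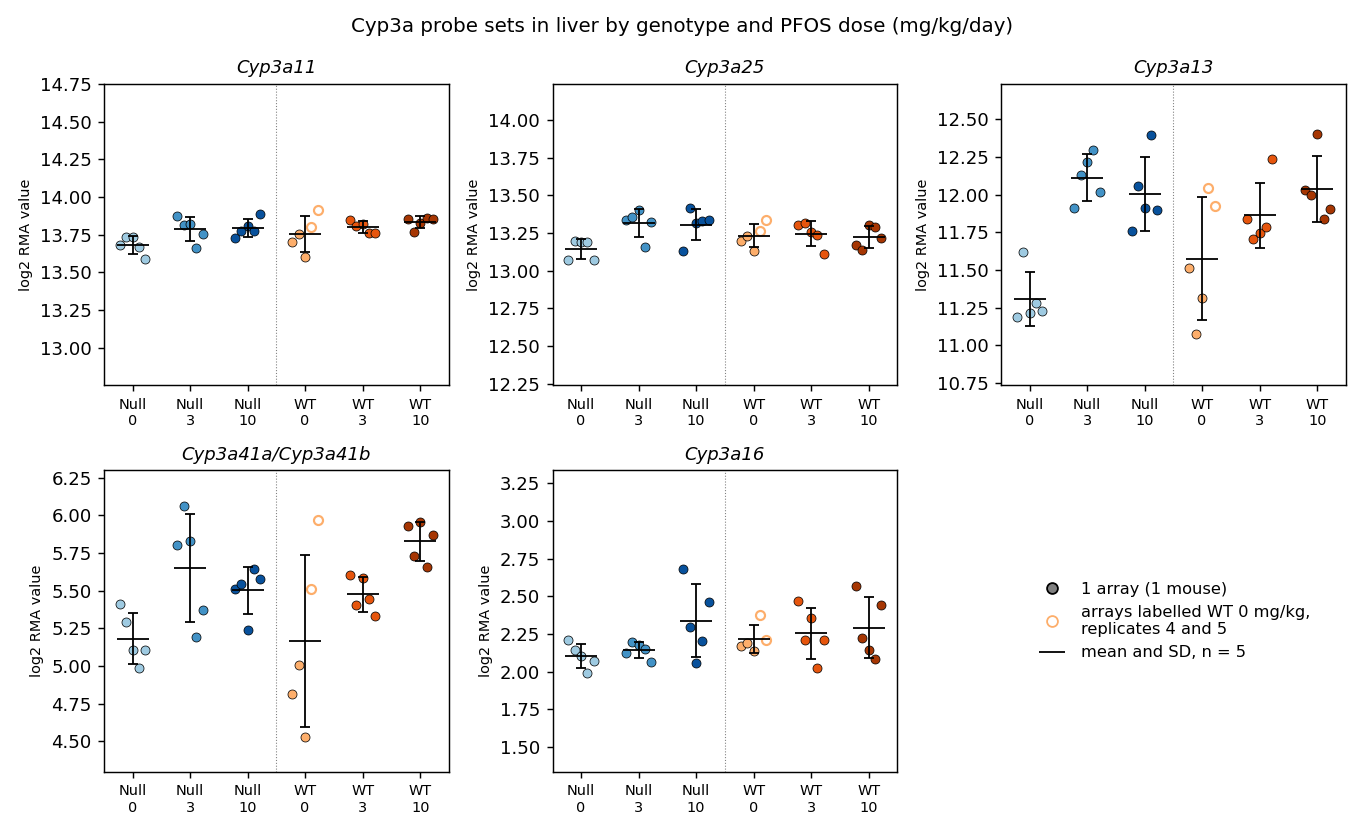
Log2 RMA value (y axis, each panel spanning 2 units) of the 5 Cyp3a probe sets in the 6 groups (x axis, genotype and PFOS dose in mg/kg); points are arrays, bars are mean and SD (n = 5), and open points are the arrays labelled WT 0 mg/kg, replicates 4 and 5. In Null mice all Cyp3a13 values at 3 and 10 mg/kg lie above all values at 0 mg/kg, while Cyp3a11 stays between 13.59 and 13.91 in all groups.

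In Null mice Cyp3a13 rose at both doses. It had 11.19, 11.62, 11.22, 11.28 and 11.23 at 0 mg/kg. At 3 mg/kg it had 11.91, 12.13, 12.22, 12.29 and 12.02. At 10 mg/kg it had 11.76, 12.06, 11.91, 12.40 and 11.90. Every treated array lay above every control array at both doses, while the treated groups overlapped each other. With 3 against 0 mg/kg the change was 0.81 (SE 0.12, 1.75-fold, limma adjusted p = 0.0024), and with 10 against 0 mg/kg it was 0.70 (SE 0.12, 1.62-fold, limma adjusted p = 0.00311). Cyp3a13 was the 1 member called of 4 kept in each of these contrasts, where 3.88% of all kept probe sets were called at 3 mg/kg and 7.04% at 10 mg/kg. Groups with every treated array above every control array were found for 3.8% of probe sets at 3 mg/kg and 3.15% at 10 mg/kg.

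In WT mice Cyp3a13 had 11.51, 11.07, 11.32, 12.04 and 11.93 at 0 mg/kg, the last 2 being the arrays that went against their label. At 3 mg/kg it had 11.84, 11.70, 11.75, 11.79 and 12.24, and at 10 mg/kg 12.03, 12.00, 12.40, 11.84 and 11.90. Both treated groups overlapped the 0 mg/kg group through those 2 arrays alone, and the 3 and 10 mg/kg groups overlapped each other. With all arrays the change was 0.46 at 10 mg/kg against 0 mg/kg (SE 0.17, limma adjusted p = 0.0869). Without those 2 arrays it was 0.74 (SE 0.14, limma adjusted p = 0.00258), in a fit that called 24.5% of all kept probe sets. Leaving out replicate 4 alone gave 0.58 (limma adjusted p = 0.0299), and replicate 5 alone 0.55 (limma adjusted p = 0.0397). At 3 mg/kg the change was 0.29 (limma adjusted p = 0.996), and without them 0.56 (limma adjusted p = 0.114).

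The Cyp3a41a/Cyp3a41b probe set, which was kept through 9 arrays, 5 of them from WT mice at 10 mg/kg, was the member called in WT mice. It had 4.81, 5.01, 4.53, 5.51 and 5.97 at 0 mg/kg. At 3 mg/kg it had 5.60, 5.41, 5.58, 5.45 and 5.33, and at 10 mg/kg 5.93, 5.73, 5.96, 5.66 and 5.87. All arrays at 10 mg/kg lay above all arrays at 3 mg/kg, and above replicates 1 to 3 at 0 mg/kg. Shares of all probe sets separated in these ways are not given here, and fewer controls are more easily cleared. The change at 10 mg/kg against 0 mg/kg was 0.66 (SE 0.20, 1.58-fold, limma adjusted p = 0.0423), and 1.04 without the 2 arrays (SE 0.11, limma adjusted p = 2.96e-05). The fit without them called 24.5% of all kept probe sets. Both tests use values that selected the probe set. Within groups it varied with Cyp2b10, which helped to single out the 2 arrays (Pearson r = 0.73 over 30 arrays, 0.29 over 28 without them). The call with all arrays was lost (limma adjusted p of 0.0521 to 0.112) when any 1 of 11 of the 15 WT arrays was left out. It held without replicate 4 or 5 at 0 mg/kg, replicate 2 at 3 mg/kg or replicate 4 at 10 mg/kg. It was also lost without the filter (0.057). This was 1 of 4 members called, where 10.4% of all kept probe sets were called. Every treated array above all 5 control arrays was found for 4.46% of probe sets, but not for this one. At 3 mg/kg the change was 0.31 (limma adjusted p = 1.00) and 0.69 without the 2 arrays (limma adjusted p = 0.00741, in a fit that called 0.715% of probe sets). Calls at 3 mg/kg were 0 of 4 members with limma, 0 at an unadjusted p under 0.05 and 0 with the methods' t-test, where 0.162% of probe sets were called. Between 10 and 3 mg/kg the difference was 0.35 (limma adjusted p = 0.275, and 0.0281 without the 2 arrays, in a fit that called 11.5% of probe sets). Calls in that contrast were 0 of 4 with limma, 0 unadjusted and 0 with the methods' t-test, against 5.25% of probe sets.

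In Null mice the same probe set had 5.41, 5.29, 5.11, 4.99 and 5.11 at 0 mg/kg. At 3 mg/kg it had 5.80, 6.07, 5.83, 5.19 and 5.37, and at 10 mg/kg 5.51, 5.54, 5.24, 5.64 and 5.58. The groups overlapped. Against 0 mg/kg the difference was 0.47 with 3 mg/kg (SE 0.14, limma adjusted p = 0.0764) and 0.32 with 10 mg/kg (SE 0.14, limma adjusted p = 0.191). Without replicate 4 of the 3 mg/kg group the first of these was 0.59 (limma adjusted p = 0.0257).

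Markers of other cell types were set beside these changes. At 10 mg/kg in WT mice the mean log2 value of 7 hepatocyte markers lay between 13 and 13.15, against 13.23 to 13.31 at 0 mg/kg. Of the 7, 3 were lower (Tat, Cps1 and Tdo2), where 5.54% of all kept genes were lower. The others did not pass the test: Alb, Ttr and Asgr1 changed by -0.03, -0.02 and -0.03, and Apoa1 by -0.14 (limma adjusted p = 0.139 to 0.874). The mean of 7 stellate cell markers lay between 7.83 and 8.08, against 7.997 to 8.48, and 1 (Hgf) was lower. In Null mice at 10 mg/kg 3 of 11 Kupffer cell markers were lower (Cd5l, C1qa and C1qc), beside 4.96% of all genes lower and 4.14% higher, and 2 of 9 endothelial markers were higher (Lyve1 and Pecam1), while 6 of the 9 had values below 0 that did not pass the test (-0.27 to -0.09). Kupffer cell markers averaged 8.17 to 8.79 in Null mice at 10 mg/kg, against 8.62 to 9.13 at 0 mg/kg. Without the 2 arrays 4 endothelial, 3 stellate and 1 Kupffer cell markers were lower in WT mice at 10 mg/kg, in a contrast that called 24.5% of all probe sets. The part of these markers in the Cyp3a changes was not tested, and in bulk tissue fewer cells of a type and less RNA per cell cannot be told apart.

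Cyp3a11 stayed in a narrow band. It had 13.68, 13.73, 13.73, 13.67 and 13.59 in Null mice at 0 mg/kg, 13.87, 13.82, 13.82, 13.66 and 13.76 at 3 mg/kg, and 13.73, 13.77, 13.81, 13.78 and 13.88 at 10 mg/kg. In WT mice it had 13.70, 13.75, 13.60, 13.80 and 13.91 at 0 mg/kg, 13.85, 13.80, 13.82, 13.76 and 13.76 at 3 mg/kg, and 13.86, 13.77, 13.83, 13.86 and 13.85 at 10 mg/kg. Within each genotype the dose groups overlapped, and in WT mice the treated groups overlapped the 0 mg/kg group through the 2 arrays alone. The whole range over 30 arrays was 0.32. With all arrays the largest change was 0.11, in Null mice at 10 mg/kg (95% interval -0.02 to 0.24, limma adjusted p = 0.293). In WT mice at 3 mg/kg it was 0.05 (limma adjusted p = 1.00), and 0.12 without the 2 arrays (limma adjusted p = 0.519). In WT mice at 10 mg/kg it was 0.08 (interval -0.05 to 0.21, limma adjusted p = 0.414), and 0.15 without the 2 arrays (interval 0.02 to 0.28, limma adjusted p = 0.0915). The probe set lay within 1 unit of the array maxima, and whether its signal could rise further was not tested.

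Cyp3a25, another member of the cluster, ranged from 13.07 to 13.41. In Null mice it averaged 13.14 ± 0.07 at 0 mg/kg, 13.32 ± 0.10 at 3 mg/kg and 13.31 ± 0.10 at 10 mg/kg (n = 5 each, SD). The changes of 0.17 and 0.16 did not pass the test (limma adjusted p = 0.195 and 0.175). In WT mice the means (n = 5 each) were 13.23 ± 0.08 (SD) at 0 mg/kg, 13.25 ± 0.08 with 3 mg/kg and 13.22 ± 0.07 with 10 mg/kg, with changes of 0.01 and -0.01, and of 0.06 and 0.04 without the 2 arrays (limma adjusted p = 0.833 and 0.753).

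Cyp3a16 stayed at the bottom of the scale, between 1.99 and 2.68. Fitted without the filter, it differed from 0 mg/kg in Null mice by 0.04 with 3 mg/kg and 0.24 with 10 mg/kg (limma adjusted p = 0.926 and 0.229), and in WT mice by 0.04 and 0.08 (0.09 and 0.13 without the 2 arrays). Cyp3a44, the neighbour of Cyp3a41a and Cyp3a11, was weak as well and did not pass the filter. Without the filter it changed by 0.78 in Null mice at 3 mg/kg (limma adjusted p = 0.0819). In WT mice at 10 mg/kg it changed by 0.43 (limma adjusted p = 0.205), and by 0.79 without the 2 arrays (limma adjusted p = 0.000632). The 3 controls left in that fit had almost the same low value (3.95, 3.96 and 3.95, SD 0.0045), so this p rests partly on a very small spread. Cyp3a44 was above the array median in 1 of 30 arrays. These paralogs are close in sequence, and cross-hybridization among their probe sets was not tested.

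**Figure D2:**
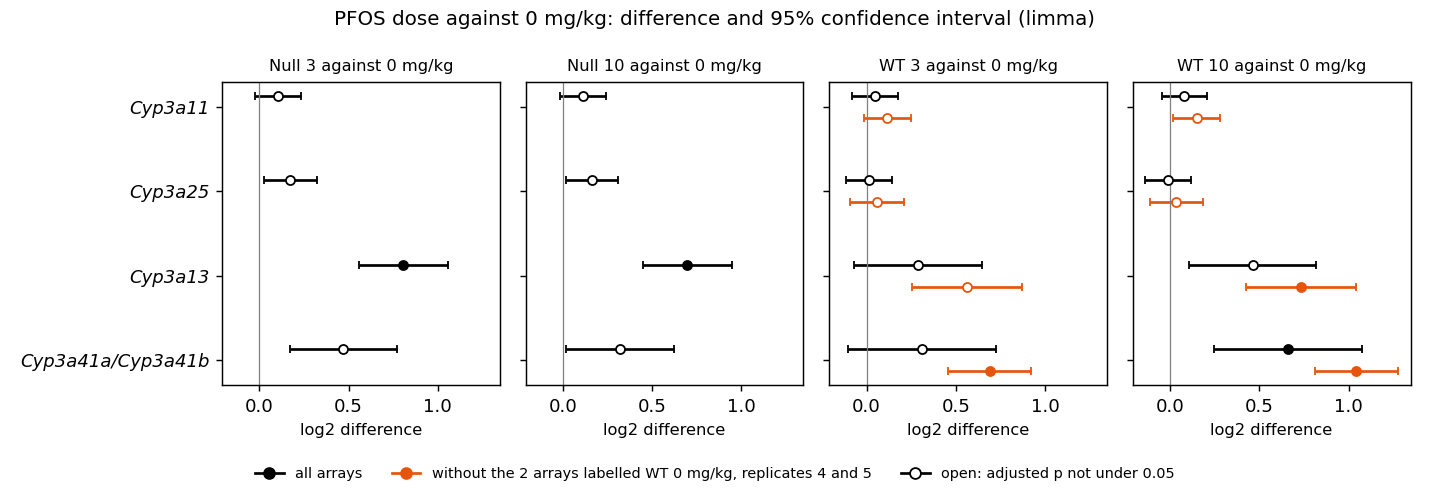
Log2 difference of each PFOS dose against 0 mg/kg (x axis) for the 4 kept Cyp3a probe sets (rows) in Null and WT mice, with 95% confidence intervals from limma; filled points have an adjusted p under 0.05, and orange points leave out the arrays labelled WT 0 mg/kg, replicates 4 and 5. Cyp3a13 is filled at both doses in Null mice, at 0.81 and 0.70, and in WT mice at 10 mg/kg only without those arrays, at 0.74.

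Whether the genotypes responded differently was tested directly. The response of Cyp3a13 at 3 mg/kg was 0.52 larger in Null than in WT mice (95% interval 0.08 to 0.95, limma adjusted p = 0.249), and 0.25 larger without the 2 arrays (interval -0.15 to 0.64). At 10 mg/kg the difference was 0.24 (interval -0.20 to 0.67), and -0.04 without them. For Cyp3a41a/Cyp3a41b the difference at 10 mg/kg was -0.34 (interval -0.86 to 0.18, limma adjusted p = 0.55). It was -0.72 without the 2 arrays (interval -1.12 to -0.32, limma adjusted p = 0.0348), in a fit that called 4.05% of all probe sets. This probe set was kept through 9 arrays, 5 of them from WT mice at 10 mg/kg. Tests that use that group are therefore on values that selected the probe set, and no conclusion about the genotypes is drawn from them. With all arrays limma called 0 of 4 members at 3 mg/kg and 0 of 4 at 10 mg/kg, where 0.818% and 2.95% of probe sets were called. At an unadjusted p under 0.05 there was 1 member at 3 mg/kg (Cyp3a13) and 0 at 10 mg/kg, and the methods' t-test called 0.

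Null against WT mice at the same dose gave 0 of 4 members called by limma at 0, 3 and 10 mg/kg, 0 at an unadjusted p under 0.05 and 0 with the methods' t-test. The shares of all probe sets called were 1.25%, 9.75% and 12%. The Cyp3a41a/Cyp3a41b difference without the 2 arrays was 0.40 at 0 mg/kg (unadjusted p = 0.0117, limma adjusted p = 0.183) and -0.33 at 10 mg/kg (unadjusted p = 0.0164, limma adjusted p = 0.0907). Without them limma again called 0 of 4 members at each dose, where 1.89%, 10.4% and 13.4% of all probe sets were called. At 10 mg/kg every Null array of Cyp3a41a/Cyp3a41b lay below every WT array (5.24 to 5.64 in Null mice, against 5.66 to 5.96 in WT mice), with a difference of -0.33 (limma adjusted p = 0.256). All 5 of these WT arrays were among the 9 through which the probe set was kept, so this position rests on values that selected it. The share of all probe sets separated in this way is not given here. Null mice at 10 against 3 mg/kg gave 0 of 4 members with limma, 0 unadjusted and 0 with the methods' t-test, where 0% of probe sets were called. All dose contrasts of a genotype share their 0 mg/kg arrays.

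The members differed in how they varied among mice of the same group. Deviations from the group means correlated between Cyp3a11 and Cyp3a25 (Pearson r = 0.70 over 30 arrays, 0.66 over 28 without the 2 arrays) and between Cyp3a11 and Cyp3a41a/Cyp3a41b (0.76 and 0.60). Cyp3a13 showed little of this with Cyp3a11 (0.19 and -0.21) or Cyp3a25 (0.18 and 0.003). Its value with Cyp3a41a/Cyp3a41b was 0.43 over 30 arrays and 0.009 over 28. These are descriptions, since the points share arrays and a normalization. Likeness to other genes was read from the values themselves, with dose and genotype differences left in. Over the 30 arrays the genes most like Cyp3a13 were Hsd17b7 (r = 0.83), Nus1 (0.82) and Cyp51 (0.82). Those most like Cyp3a11 were Cyp2c29 (0.83), Ces1d (0.83) and Aldh1a1 (0.81), and those most like Cyp3a41a/Cyp3a41b were Ces1d (0.88), Cyp2c29 (0.85) and Acot1 (0.85). For Cyp3a25 they were Ugt2b34 (0.80), Capn7 (0.79) and Ncl (0.79).

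Some other targets of PXR and CAR changed by more than any Cyp3a probe set, and others by less. Of 24 listed, 19 were kept. With 3 mg/kg 6 of them rose in Null mice and 0 fell, and with 10 mg/kg 12 rose and 0 fell, against shares over all kept genes of 2.02% up and 3.13% down with 3 mg/kg, and 4.14% up and 4.96% down with 10 mg/kg. Their median changes were 0.37 and 0.58. Cyp2b10, a phenobarbital-inducible P450, changed by 3.44 with the 3 mg/kg dose and 4.33 with 10 mg/kg (limma adjusted p = 0.000812 and 7.76e-05). Cyp2c55, another inducible P450, changed by 3.40 and 4.65 (limma adjusted p = 0.00456 and 0.000369). The exporter Abcc2 changed by 0.45 and 0.58 (limma adjusted p = 0.00563 and 0.000725).

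In WT mice the lowest adjusted p among these 19 genes at 3 mg/kg was 0.912 (limma), where 0.239% of genes were higher and 0.00823% lower. With 10 mg/kg 3 rose and 0 fell, against 7.53% and 5.54% of all genes. The 3 were Gadd45b (1.43, limma adjusted p = 0.00133), Alas1, the first enzyme of heme synthesis (1.08, 0.0193), and the exporter Abcb1a (0.71, 0.0145), of which the last 2 were named after their values were seen. Without the 2 arrays 4 were higher at 3 mg/kg and 16 at 10 mg/kg, where the shares of all kept probe sets called in either direction were 0.715% and 24.5%. Cyp2b10 then changed by 3.66 and 4.42 and Cyp2c55 by 2.91 and 5.35, against 1.81 and 2.57 and 0.62 and 3.07 with all arrays. Since the 2 arrays were singled out partly by Cyp2b10, its larger change without them follows from that choice. Cyp2c55 was high in the same arrays (12.16 and 12.40, against 6.55 to 6.57 in replicates 1 to 3). The counts without the 2 arrays are not independent of that choice either.

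**Figure D3:**
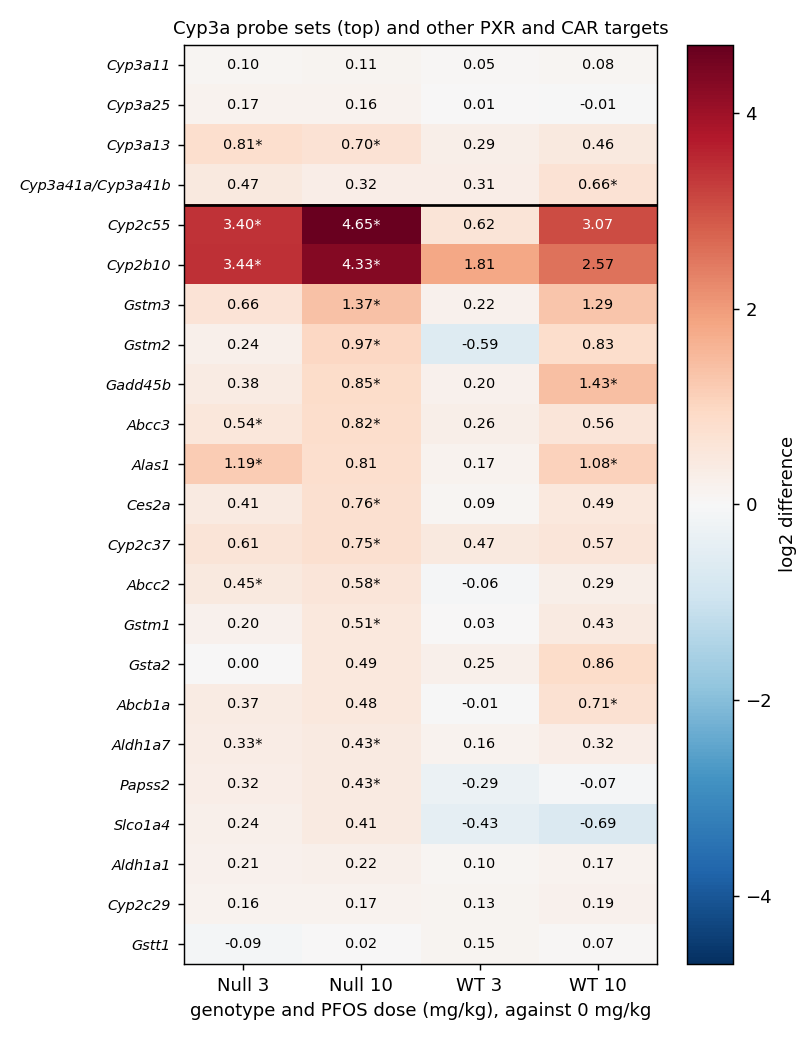
Log2 difference against 0 mg/kg (colour and printed value) of the 4 kept Cyp3a probe sets (above the line) and 19 other PXR and CAR targets (rows) at each dose in Null and WT mice, all arrays; an asterisk marks a limma adjusted p under 0.05. Cyp2c55 and Cyp2b10 reach 4.65 and 4.33 in Null mice at 10 mg/kg, against 0.70 for Cyp3a13 and 0.11 for Cyp3a11.

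The genes of PXR and CAR did not pass the test. Nr1i2, which encodes PXR, changed by 0.43 in Null mice at 10 mg/kg and by 0.61 in WT mice at 10 mg/kg (limma adjusted p = 0.327 and 0.0794). Nr1i3, which encodes CAR, changed by 0.17 and 0.06 in these contrasts (limma adjusted p = 0.336 and 0.755). The WT changes without the 2 arrays were 0.51 and 0.08 (limma adjusted p = 0.161 and 0.718). Of 13 receptors and cofactors, 2 were called in WT mice at 10 mg/kg, both lower, where 5.54% of all genes were lower. They were Hnf4a, a hepatocyte transcription factor that Cyp3a genes depend on (-0.42, limma adjusted p = 0.0343), and the coactivator gene Ppargc1a (-1.01, 0.00911). Without the 2 arrays 5 were lower, where 24.5% of probe sets were called. Of 12 kept genes that supply electrons or heme to P450 enzymes, 1 was higher in Null mice at 3 mg/kg (Alas1), 1 in Null mice at 10 mg/kg (Cyb5b) and 2 in WT mice at 10 mg/kg (Alas1 and Cpox), and 0 were lower. The shares of all genes higher in these contrasts were 2.02%, 4.14% and 7.53%. Without the 2 arrays 4 were higher in WT mice at 10 mg/kg.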

How the data were processed

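Liver RNA from 30 mice was hybridised to Affymetrix mouse genome arrays, 1 array a mouse. The deposited values are log2 values that the authors made with RMA (background correction, quantile normalization, summary per probe set). Control probe sets (64 of 45101) were left out. Probe sets exceeding the overall median value (5.65) on 5 or more arrays were kept, 24069 in all. Dose contrasts were fitted with limma (version 3.58.1, R version 4.3.3) over the 15 arrays of a genotype, as the study's methods analysed each strain by itself. Response differences and genotype contrasts were fitted over all 30 arrays. P-values were adjusted (Benjamini-Hochberg) over all kept probe sets and called under 0.05. For a list gene with several probe sets, the one with the lowest p across dose effects was used. All probe sets of the Cyp3a genes were named, with the 3 most similar other genes of each kept one. From the lists mainly the genes with the smallest p or called were named. These members and lists were chosen with earlier results of these data known. Alternatives covered filters, normalization, arrays left out, weights, a replicate block and the methods' t-test. The fits were tested on simulated data. Array number limits the precision. Promoter windows came from RefSeq (GRCm38.p6). Protein sequences were not used here.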

Additional observations from a re-analysis of the deposited data

Results flagged for a closer look

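In Cyp3a13 the array of Null 0 mg/kg replicate 2, at 11.62, stood apart from the other 4 of its group, with a gap to the nearest that was 0.778 of the group's whole range. Leaving it out moved the Null change at 3 mg/kg to 0.89 and that at 10 mg/kg to 0.77. In WT mice at 3 mg/kg the array of replicate 5, at 12.24, stood apart in the same way (0.741 of the range). Over 36 combinations of probe set and group, Cyp3a44 included, 2 were marked so, and chance marks about 1 in 20.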

How the results depend on the processing

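The calls of Cyp3a13 in Null mice at 3 and 10 mg/kg held under every alternative run for these contrasts (adjusted p up to 0.0103 and 0.013). The count of members called in WT mice at 10 against 0 mg/kg (1) was 0 without the filter, with the stricter filter (which drops the Cyp3a41a/Cyp3a41b probe set), with the compared groups only, with the replicate block, with the methods' t-test (adjusted and at its unadjusted limit) and with limma at that limit, which was chosen after seeing the data. It was 2 without the 2 arrays labelled WT 0 mg/kg replicates 4 and 5, with all 30 arrays in the fit and with array weights, and between 0 and 2 when single arrays were left out. Without the 2 arrays it was 1 at 3 against 0 mg/kg, 1 at 10 against 3 mg/kg (also with the compared groups only) and 1 for the response difference at 10 mg/kg. Each time this was the Cyp3a41a/Cyp3a41b probe set, which was kept only through arrays in which it was high. The shares of all probe sets called without the 2 arrays were 0.715%, 11.5% and 4.05%, and 24.5% at 10 against 0 mg/kg. Shares in the other fits are not given here. In Null mice at 3 mg/kg the count of members was 3 with array weights and 1 to 2 with single arrays left out. Same-numbered mice did not deviate together (median r = 0.014 over 30 pairs, 8 over 0.1), so the numbers do not pair them. Small changes turned sign, and in no such case did either value pass the test. Without the 2 arrays the Cyp3a25 change in WT mice at 10 mg/kg was 0.035 and the Cyp3a13 difference, Null against WT, at 0 mg/kg was 0.0058. The response differences were then -0.012 (Cyp3a11) and -0.22 (Cyp3a41a/Cyp3a41b) at 3 mg/kg and -0.036 (Cyp3a11) and -0.038 (Cyp3a13) at 10 mg/kg. With array weights Cyp3a25 had 0.00164 in WT mice at 10 against 0 mg/kg and 0.011 in Null mice at 10 against 3 mg/kg, and Cyp3a13 had 0.052 for Null against WT at 10 mg/kg. With arrays shifted to the same median Cyp3a25 had 0.015 in WT mice at 10 mg/kg, and Cyp3a11 had -0.00156 in Null mice at 10 against 3 mg/kg and 0.017 for Null against WT at 3 mg/kg. With quantile normalization repeated Cyp3a25 had 0.026 in Null mice at 10 against 3 mg/kg. With single arrays left out the ranges were -0.021 to 0.031 (Cyp3a11) and -0.050 to 0.034 (Cyp3a25) for Null mice at 10 against 3 mg/kg. For Cyp3a25 in WT mice they were -0.012 to 0.046 at 3 mg/kg and -0.035 to 0.016 at 10 mg/kg. For the response differences they were -0.038 to 0.32 (Cyp3a41a/Cyp3a41b, 3 mg/kg) and -0.0067 to 0.072 (Cyp3a11, 10 mg/kg). For Null against WT they were -0.14 to 0.22 (Cyp3a41a/Cyp3a41b, 0 mg/kg), -0.037 to 0.016 (Cyp3a11, 3 mg/kg) and -0.13 to 0.059 (Cyp3a13, 10 mg/kg). The cause was not tested.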

Other observations

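Because several Cyp3a genes are known to differ between the sexes, other sex-dependent liver genes were counted in these male mice. Over all kept genes 4.14% were higher and 4.96% lower in Null mice at 10 mg/kg, and 7.53% higher and 5.54% lower in WT mice at 10 mg/kg. Of 11 kept male-predominant genes, 1 was higher (Cyp4a12a) and 2 were lower (Cyp7b1 and Nudt7) in Null mice at 10 mg/kg (limma). In WT mice at 10 mg/kg 5 were lower, among them Hsd3b5, a steroid reductase gene (-4.12, limma adjusted p = 0.00417), and Slco1a1, an uptake transporter gene (-1.22, limma adjusted p = 0.0143). Of 4 kept female-predominant genes, 1 was higher in Null mice at 10 mg/kg (Trim24) and 1 was lower in WT mice at 10 mg/kg (Cyp17a1). Of 8 pericentral hepatocyte genes 2 were lower in Null mice at 10 mg/kg and 4 in WT mice at 10 mg/kg, and of 8 periportal genes 4 were lower in WT mice at 10 mg/kg (Hal, Ass1, Arg1 and Pck1). Without the arrays labelled WT 0 mg/kg, replicates 4 and 5, when 24.5% of all probe sets were called, the WT counts at 10 mg/kg were 6 lower and 1 higher of the male-predominant genes, 1 lower of the female-predominant genes, 5 lower of the pericentral genes and 3 lower of the periportal genes.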
